A study of Mus musculus with 49 samples.

Results

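The rosiglitazone response of epididymal fat in 129S1/SvImJ mice was read from 8 RNA sequencing libraries out of the 49 samples of the series. They were chosen by their labels, as the 4 libraries of the drug diet and the 4 of the matching control diet. Earlier results of these data were known when they were chosen. Mice of this inbred strain ate the low fat diet D12450B from 6 weeks of age, and at 16 weeks either stayed on it (control) or changed to the same kind of diet with rosiglitazone at 36 mg/kg for 2 weeks, until 18 weeks. All groups used here thus share the low fat diet, and no group carries an engineered allele. C57BL/6 mice handled in the same way gave 4 control and 4 drug libraries, which served to ask where the response of 129S1/SvImJ differed. Whether each library came from its own mouse is not in the labels, and the p-values therefore reflect only how these libraries vary.

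Rosiglitazone is an insulin-sensitizing thiazolidinedione that binds PPARG, a nuclear receptor that pairs with a retinoid X receptor on DNA and is the chief regulator of fat cell formation and lipid storage. Its known targets in fat cells include genes for fatty acid uptake, lipid droplet proteins and glycerol handling. Long treatment can also raise genes of mitochondrial oxidation and heat production in white fat, a change known as browning.

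The deposited values are normalized, whole-number expression values per transcript with a floor of 1, in which the 16 libraries were given nearly the same distribution. The summed value per library ran from 5537632 to 5542536, so read depth cannot be recovered from them and is unknown. In rosiglitazone libraries 1 and 2 of 129S1/SvImJ, 26.0% and 27.2% of transcripts lay at the floor, against 15.2% to 20.2% in the 4 controls and 16.5% and 18.2% in drug libraries 3 and 4. Counts are given with and without those 2 libraries where they changed. Leaving both out leaves 2 drug libraries, so a call can also be lost because the group is smaller. A lost call therefore does not show that the result came from those libraries. The fat cell genes Adipoq, Fabp4 and Cd36 were among the highest values in all 8 libraries, while 17 genes of epididymis summed to only 19 to 34 per library, close to the floor.

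At an adjusted p under 0.05 (limma, Benjamini-Hochberg over 14044 genes), 1499 genes (10.7%) responded in 129S1/SvImJ. Of these, 818 (5.82%) were higher and 681 (4.85%) lower with the drug, and the median log2 fold change of all genes was -0.007. These shares are the background for every list count in 129S1/SvImJ below. Without drug libraries 1 and 2 the count was 836, of which 741 were among the 1499. Leaving out control library 4 alone gave 964, while leaving out drug library 1 or drug library 2 alone gave 1227 or 1122. The 4 drug and 4 control libraries did not overlap in 2246 of the 14044 genes (16.0%), the share to set beside each such remark below. Fold changes below are log2 values on the scale log2(value + 1) with their standard error, which understates changes in genes near the floor.

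**Figure D1:**
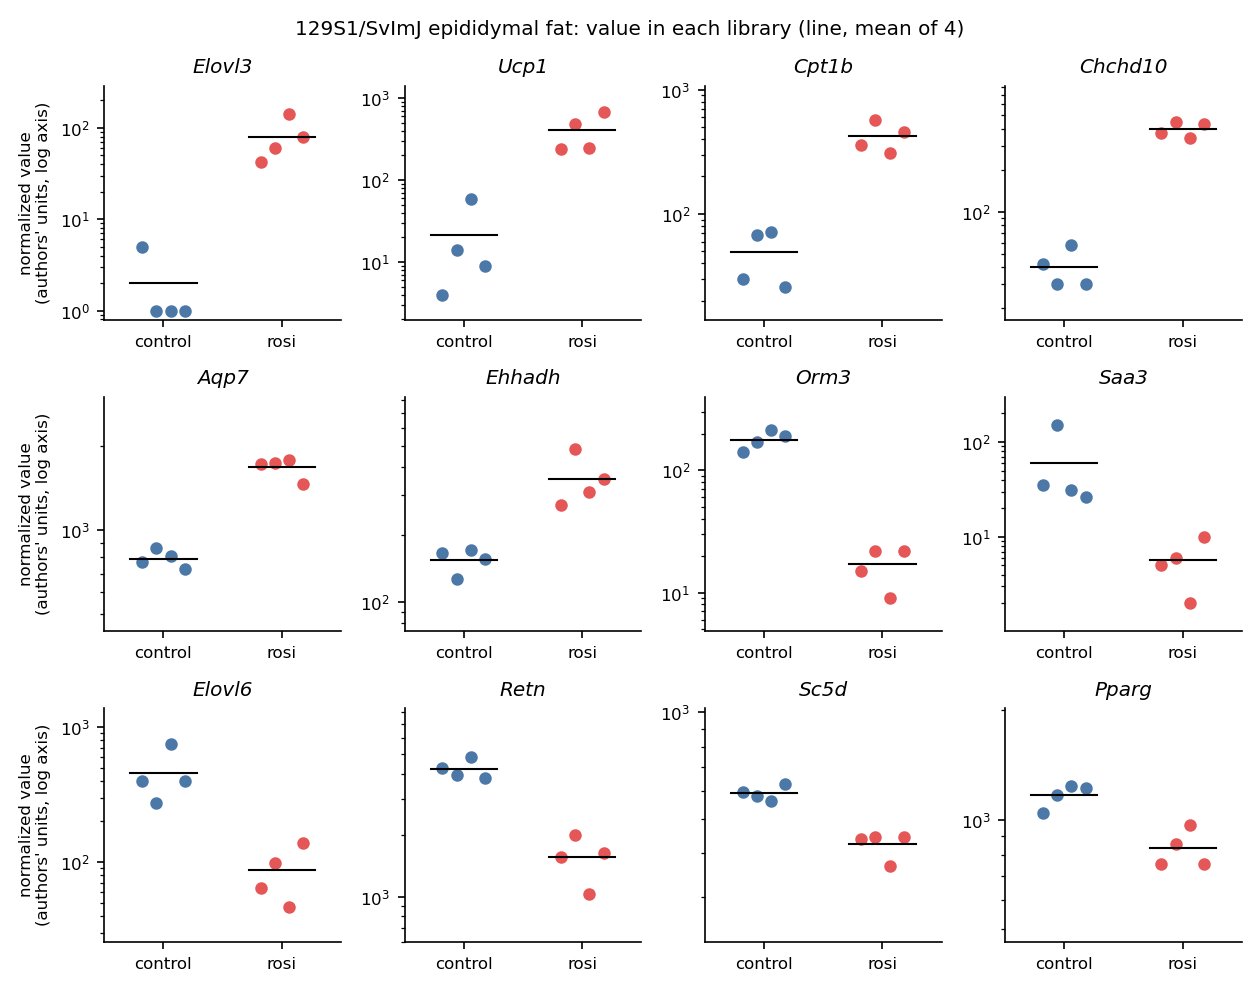
Normalized value of 12 genes in each library of 129S1/SvImJ epididymal fat (points, log axis) with the mean of 4 libraries (line), for control diet (blue) and rosiglitazone (red). Elovl3 and Ucp1 lie far higher with the drug, Orm3 and Saa3 lower, and in none of the 12 genes do the 2 groups overlap. The same held for 16.0% of all tested genes.

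Among called genes without overlap and with a mean value of at least 20, the 2 largest increases were those of Elovl3 and Ucp1, genes of brown and beige fat. Elovl3, an elongase of very long fatty acids that is abundant in cold-activated brown fat, read 5, 1, 1 and 1 in the controls and 42, 60, 140 and 79 with the drug. Its log2 fold change was 4.81 ± 0.43 (adjusted p = 6.63e-07), a size that depends on the pseudocount because 3 controls sat at the floor. Ucp1, the uncoupling protein that lets brown fat mitochondria make heat, read 4, 14, 59 and 9 in the controls and 241, 481, 245 and 680 with the drug (4.68 ± 0.54, adjusted p = 3.86e-05). The lowest drug library was thus well above the highest control for both genes, although the controls themselves varied widely for Ucp1.

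Of 23 tested members of the thermogenic list, 10 were higher and none lower, against 5.82% and 4.85% of all genes, and the list median was 0.64. Otop1, a proton channel gene found in brown fat, went from 12, 19, 38 and 5 to 151, 200, 156 and 179 (3.45 ± 0.47, adjusted p = 0.000232). Cidea, a lipid droplet protein typical of brown fat, rose by 2.31 ± 0.22. The fat- and muscle-type respiratory subunits Cox8b (2.46 ± 0.36) and Cox7a1 (1.42 ± 0.35) rose as well, the call of Cox7a1 being lost without drug libraries 1 and 2 (adjusted p = 0.109). The coactivators Ppargc1a (0.82 ± 0.26, adjusted p = 0.0473) and Ppargc1b (0.86 ± 0.24, adjusted p = 0.0271), which drive mitochondrial genes, rose by smaller amounts, and both lost the call when any of several single libraries was left out, with adjusted p up to 0.226 and 0.0968 over all alternatives. Other known members did not pass the test, among them Dio2 (0.41), Prdm16 (0.49) and Adrb3, the beta-3 adrenergic receptor (-0.88). Without drug libraries 1 and 2, 8 thermogenic genes were called higher.

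The list of textbook PPARG agonist targets had 20 higher and 0 lower of 32 tested members, with a median log2 fold change of 0.83. Pdk4, a kinase that turns off pyruvate dehydrogenase, went from 235, 336, 311 and 264 to 1908, 2499, 1369 and 1913 (2.72 ± 0.26, adjusted p = 8.31e-06). Aqp7, the channel through which glycerol leaves fat cells, read 769, 862, 808 and 728 in the controls and 1719, 1732, 1785 and 1464 with the drug (1.08 ± 0.10, adjusted p = 6.63e-07). Its libraries were tight in both groups and far apart between them. Fabp4, the main fatty acid carrier of fat cells, read 34653, 40086, 41978 and 30692 and then 69086, 69086, 69086 and 58431 (0.86 ± 0.13, adjusted p = 0.000179). The value 69086 stands in 3 drug libraries, a tie given by the normalization. Without drug libraries 1 and 2 the count of higher targets was 19.

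Classic targets that did not pass the test included Cd36 (0.03), Lpl (0.14), Plin1 (-0.28), Lipe (0.07) and Adipoq (0.04). Adipoq, which encodes adiponectin, read 14393, 14393, 13828 and 15186 in the controls and 17219, 17219, 12430 and 13106 with the drug, so the groups overlapped. Cd36, a fatty acid transporter, ran from 20507 to 22943 in the controls and from 22517 to 22943 with the drug. The scale has a ceiling. Scd1, the main desaturase of fat, held the highest value, 231290, in every library, so any change in it cannot be seen. In the authors' deposited table Adipoq had a log2 fold change of 0.41 (p = 0.00479) and Cd36 0.37 (p = 0.0128). The values used here gave lower fold changes than that table for abundant genes, by a median of 0.219 (log2) among 53 genes with a mean value of 5000 to 15000, and by 0.018 among 5996 genes with a mean of 100 to 1000. Among the 13 genes above 15000, which include Cd36 and Scd1, the median was back at 0.092. Falls were larger here than in the authors' deposited table for Dgat2 (-0.777 against -0.51) and Cav1 (-0.685 against -0.32).

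**Figure D2:**
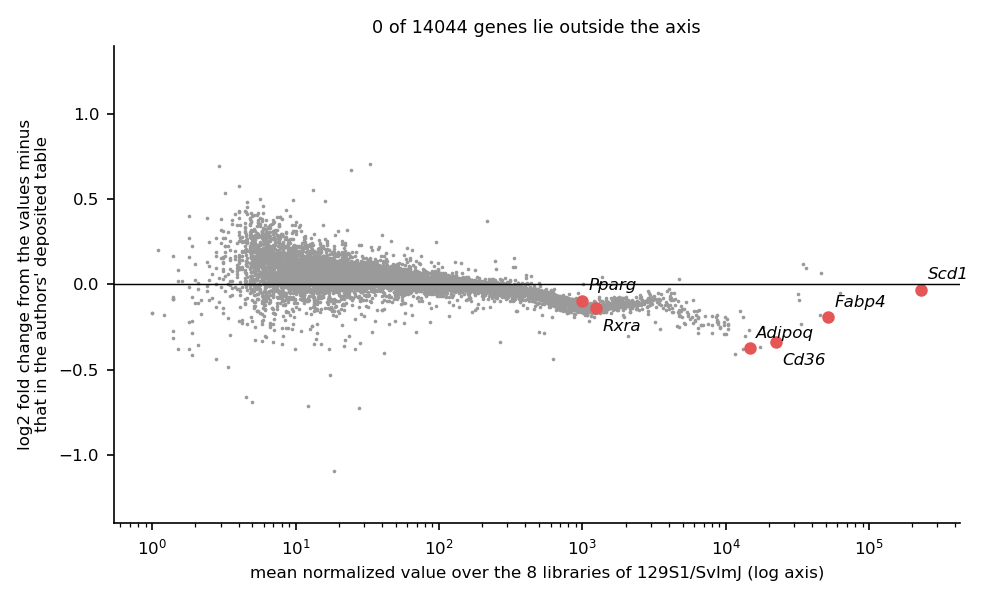
Log2 fold change computed from the normalized values minus that in the authors' deposited table, for 14044 genes (grey) against the mean value over the 8 libraries of 129S1/SvImJ (log axis), with 6 genes in red. The median falls to 0.219 below 0 for means of 5000 to 15000 and is 0.092 below 0 above that, with Adipoq and Cd36 below 0 and Scd1 at the ceiling.

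PPARG is known to read a core hexamer, AGGTCA, usually as a direct repeat with 1 base between (AGGTCANAGGTCA). The 250 bases before an annotated start of 4 genes that rose, picked because they hold the hexamer, are printed to show what such a match looks like, 5′ to 3′, from RefSeq on build GRCm38.p6, with the hexamer or its reverse complement in capitals. They are Ucp1 on the plus strand at chr8:83290098-83290347, Aqp7 on the minus strand at chr4:41047963-41048212, Chchd10 on the plus strand at chr10:75932880-75933129 and Plin5 on the minus strand at chr17:56117549-56117798.
Ucp1: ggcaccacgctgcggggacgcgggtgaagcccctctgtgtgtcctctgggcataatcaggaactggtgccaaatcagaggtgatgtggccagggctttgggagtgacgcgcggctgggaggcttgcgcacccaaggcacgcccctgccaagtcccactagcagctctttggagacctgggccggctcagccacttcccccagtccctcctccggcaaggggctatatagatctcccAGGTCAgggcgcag
Aqp7: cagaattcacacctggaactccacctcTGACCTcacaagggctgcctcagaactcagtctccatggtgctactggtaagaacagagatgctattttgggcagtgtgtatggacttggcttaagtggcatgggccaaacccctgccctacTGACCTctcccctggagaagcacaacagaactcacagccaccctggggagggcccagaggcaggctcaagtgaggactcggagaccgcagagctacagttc
Chchd10: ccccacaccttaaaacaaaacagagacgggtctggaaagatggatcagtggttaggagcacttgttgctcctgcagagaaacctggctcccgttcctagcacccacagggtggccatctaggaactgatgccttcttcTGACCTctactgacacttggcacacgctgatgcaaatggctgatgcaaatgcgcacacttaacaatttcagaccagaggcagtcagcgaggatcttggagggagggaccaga
Plin5: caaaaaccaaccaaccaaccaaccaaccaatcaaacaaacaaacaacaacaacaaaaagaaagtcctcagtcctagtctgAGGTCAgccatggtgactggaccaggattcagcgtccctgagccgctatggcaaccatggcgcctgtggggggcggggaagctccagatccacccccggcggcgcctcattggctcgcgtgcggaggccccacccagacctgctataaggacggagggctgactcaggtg

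The hexamer, searched on both strands, occurred in 10.8% of 749 such windows of genes higher in 129S1/SvImJ, in 12% of 648 windows of lower genes and in 11.2% of 12582 windows of all tested genes with an entry. The full direct repeat occurred in 11 of 32851 windows, none of them of a gene that responded. A relaxed form, AGGNCANAGGNCA, was in 2 of the 749 and 1 of the 648 windows. Among the called genes of the list of textbook PPARG agonist targets described above, 6 of 18 windows (33.3%) held the hexamer. These 18 windows came from only 13 genes, since a gene with several annotated starts gives several windows. The list includes Ucp1, Aqp7 and Plin5, printed above because they hold the hexamer. No test of these shares was made. Windows further from the start were not searched.

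Genes for fatty acid uptake, binding and activation had 7 higher and 0 lower of 17 (median 0.22). Slc27a1, a fatty acid transport protein, read 706, 627, 599 and 572 in the controls and 2671, 2682, 3533 and 2715 with the drug (2.20 ± 0.22, adjusted p = 1.11e-05). Acsl1, which activates fatty acids by joining them to coenzyme A, rose by 1.42 ± 0.14 and Fabp5 by 1.02. Every drug library was above every control for Slc27a1 and for Acsl1. Leaving out drug libraries 1 and 2 left 5 of the 17 higher.

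In the lipid droplet and lipolysis list 8 of 16 were higher and 0 lower (median 0.23), or 5 without drug libraries 1 and 2, and also 5 without control library 2, control library 4 or drug library 1. Plin5, which joins lipid droplets to mitochondria, went from 72, 150, 126 and 105 to 531, 480, 461 and 465 (2.13 ± 0.23, adjusted p = 1.76e-05). Mgll, the lipase of the last step of fat breakdown, rose by 0.81 ± 0.09, and Pnpla2, the lipase of the first, by 0.98. The droplet coat gene Plin1 (-0.28) and hormone-sensitive lipase Lipe (0.07) did not pass the test.

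Triglyceride synthesis changed in both directions. Dgat1 (0.40 ± 0.09), which adds the last fatty acid, and Agpat6 (0.37 ± 0.12, adjusted p = 0.0468) rose, while Dgat2, the other enzyme of the last step, fell by 0.78 and Mogat2, a monoacylglycerol acyltransferase, fell by 2.21. Dgat2 read 23240, 16066, 17219 and 17219 in the controls and 11028, 10236, 10046 and 11318 with the drug. Mogat2 read 134, 92, 172 and 114, then 39, 25, 13 and 37. Neither of them overlapped between groups. With Aqp7 the list held 3 higher and 2 lower of 18 (median 0.21), but 1 higher without drug libraries 1 and 2 5 higher without drug library 3 and 8 higher with array weights. Dgat1 was not called without drug libraries 1 and 2 (adjusted p = 0.112). The Agpat6 call was lost without any of 7 single libraries, and its adjusted p reached 0.286 over the alternatives.

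The most uniform increase was in mitochondrial fatty acid oxidation, where 20 of 25 members were higher, 0 lower and all 25 above 0, with a median of 0.91. Cpt1b, the muscle and brown fat form of the enzyme that admits fatty acids to mitochondria, read 30, 68, 72 and 26 in the controls and 358, 572, 309 and 456 with the drug (3.19 ± 0.28, adjusted p = 2.05e-06). The liver form Cpt1a was at 0.26 and did not pass the test. Further along the pathway, the carnitine carrier Slc25a20 rose by 1.23 ± 0.12. Hadha, a subunit of the trifunctional protein, rose by 1.29 ± 0.12. The acyl-CoA dehydrogenases Acadvl (1.34), Acadl (1.32), Acads (1.05) and Acadm (1.01) rose too, and so did Etfa, which takes up their electrons. Etfa read 350, 306, 298 and 301 and then 675, 676, 664 and 768 (1.15 ± 0.10, adjusted p = 6.21e-07). Without drug libraries 1 and 2 there were 16 higher members.

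Peroxisomal oxidation had 9 higher and 0 lower of 22 (median 0.33), or 6 without drug libraries 1 and 2. Ehhadh, a bifunctional enzyme of the pathway, read 166, 126, 170 and 156 in the controls and 270, 483, 309 and 353 with the drug (1.17 ± 0.16, adjusted p = 7.43e-05). Its groups did not overlap. Acaa1b, a thiolase, rose by 2.51 ± 0.22, but its near-identical neighbour Acaa1a was at 0.26 and reads could be shared between them.

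The citrate cycle and pyruvate dehydrogenase list had 17 higher and 1 lower of 30 (median 0.47), or 12 higher without drug libraries 1 and 2. Ogdh, a subunit of the oxoglutarate dehydrogenase complex, read 1918, 1723, 1792 and 1780 in the controls and 2695, 3219, 2729 and 2971 with the drug (0.68 ± 0.10, adjusted p = 7.14e-05). The pyruvate dehydrogenase kinases Pdk4 and Pdk2 (1.17) rose, Pdk3 fell by 0.82 and Pdk1 (0.37) did not pass the test. The Pdk3 call was lost without drug libraries 1 and 2 (adjusted p = 0.0582).

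For the respiratory chain and ATP synthase, 33 of 77 subunits were higher and 0 lower, with a median of 0.37 and 74 of 77 above 0. Ndufv1 of complex I rose by 0.79 ± 0.13, Uqcrc1 of complex III by 0.77 ± 0.13 and Cox4i1 of complex IV by 0.69 ± 0.11. Ndufv1 read 913, 805, 922 and 881 and then 1607, 1908, 1186 and 1474, with drug library 3 the lowest of the treated. This count was sensitive to single libraries: it was 20 without control library 4, 21 and 18 without drug library 1 or 2, and 6 without both of those, but 50 with array weights. Breakdown of branched-chain amino acids had 6 higher of 23, led by Mccc1 (0.66 ± 0.15), Hibch (0.65 ± 0.16) and Bckdhb (0.45 ± 0.12), and none of the 23 was called without drug libraries 1 and 2. It had 11 with array weights, 3 without control library 2, 2 without control library 4, 1 without drug library 2 and 3 without drug library 4.

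Of 21 members of the fatty acid synthesis list, 4 were lower and 2 higher (Elovl3 and Acacb), 15 did not pass the test, and the median was -0.525. The count of lower members was 7 with array weights and 8 with the libraries of 129S1/SvImJ fitted alone. Elovl6, which lengthens palmitate, read 395, 275, 749 and 397 in the controls and 65, 98, 47 and 139 with the drug (-2.38 ± 0.40, adjusted p = 0.00189). Thrsp, a promoter of lipogenesis, read 10750, 8225, 8951 and 11028, then 3785, 4885, 1935 and 4543 (-1.44 ± 0.26, adjusted p = 0.002). Both fell in every drug library below every control. Scd2 (-1.21) and Fads1 (-0.94 ± 0.15), which desaturate fatty acids, fell as well. Acacb, whose product malonyl-CoA restrains Cpt1, was higher (1.04 ± 0.31, adjusted p = 0.0489), a call that did not hold when any 1 of the 8 libraries was left out. The main synthetic enzymes Acly (-1.35 ± 0.44, adjusted p = 0.074) and Fasn (-0.71 ± 0.41, adjusted p = 0.325) did not pass. Acly did pass with array weights (adjusted p = 0.0452) and with the 129S1/SvImJ libraries alone (adjusted p = 0.0465).

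**Figure D3:**
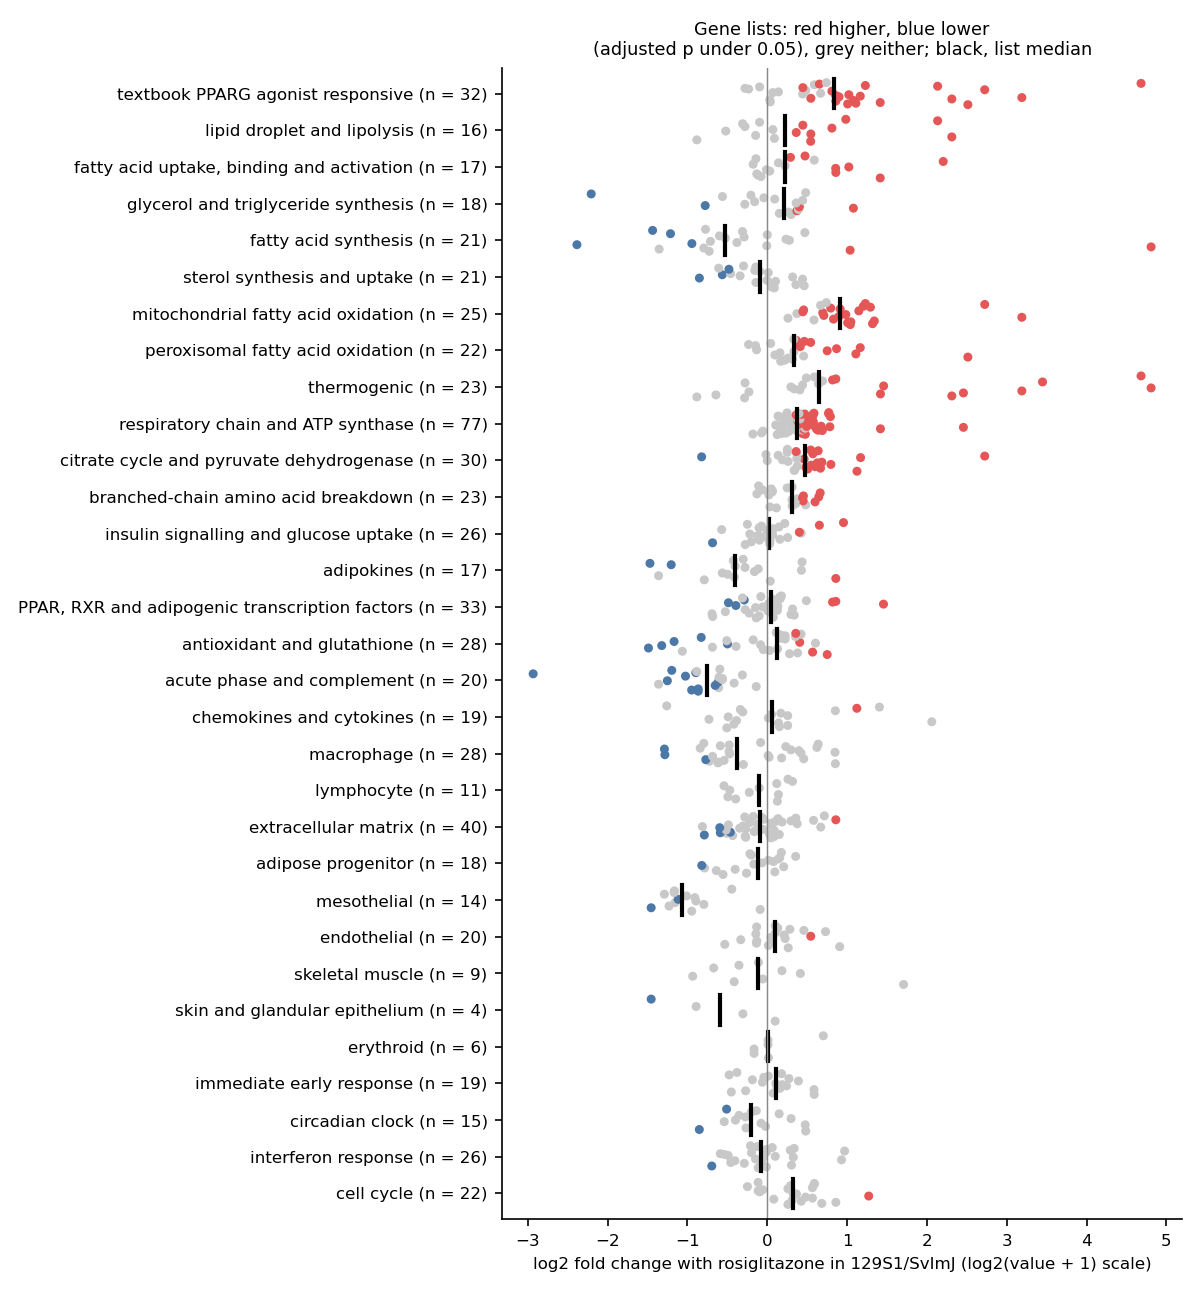
Log2 fold change with rosiglitazone in 129S1/SvImJ for every tested member of 31 gene lists (points; red higher, blue lower, grey not called), with each list's median (black bar). Mitochondrial fatty acid oxidation lies wholly to the right of 0, acute phase and complement and mesothelial genes wholly to the left.

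Sterol synthesis and uptake had 0 higher and 3 lower of 21 members in 129S1/SvImJ (median -0.092). The same list had 12 higher and 0 lower in C57BL/6 (median 0.79), where 3.17% of all genes were called higher and 1.93% lower. The difference between strains was itself called for 5 of the 21, against 0.449% of all genes. Of these, 4 enzymes of the cholesterol pathway are described here. Sc5d read 594, 582, 561 and 626 in the 129S1/SvImJ controls and 440, 444, 368 and 445 with the drug, and in C57BL/6 546, 386, 522 and 490 and then 523, 578, 863 and 850. The 129S1/SvImJ groups did not overlap, while those of C57BL/6 did. Its response differed by -0.99 ± 0.20 (adjusted p = 0.0328), being lower in 129S1/SvImJ and higher in C57BL/6. Nsdhl differed by -1.67 ± 0.30 (adjusted p = 0.0205), Sqle by -1.36 ± 0.30 (adjusted p = 0.0421) and Lss by -1.13 ± 0.24 (adjusted p = 0.0421). The 129S1/SvImJ responses of these 3 did not pass the test, at -0.46, -0.61 and 0.32, although Sqle was called lower when the 8 libraries of 129S1/SvImJ were fitted without the other strain (adjusted p = 0.00751) and with array weights (adjusted p = 0.0338). The 129S1/SvImJ controls started from higher values of Nsdhl, 205 to 402 against 70 to 113. So did they for Sqle (88 to 116 against 28 to 66) and Lss (192 to 335 against 107 to 167). None of the 3 falls in this list within 129S1/SvImJ was called without drug libraries 1 and 2, nor without control library 1, control library 4, drug library 2 or drug library 3. Without drug library 4, 1 was called.

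Ucp1 had the largest difference in favour of 129S1/SvImJ among genes with a called interaction and a mean of at least 20. It read 4, 4, 4 and 3 in C57BL/6 controls and 4, 5, 3 and 4 with the drug, near the floor throughout, and the responses differed by 4.62 ± 0.77 (adjusted p = 0.0164). The adjusted p of this difference was 0.0502, 0.0592 and 0.0515 without C57BL/6 control library 1, drug library 3 or drug library 4. Elovl3 rose in both strains, by 2.74 ± 0.43 in C57BL/6, and its difference of 2.07 ± 0.61 did not pass (adjusted p = 0.132). Cpt1b rose by 1.83 ± 0.28 in C57BL/6 with an adjusted p of 0.147 for the difference.

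Further genes with a called difference were Niacr1, the niacin and ketone body receptor that restrains lipolysis, at 1.77 ± 0.37 (adjusted p = 0.0404). It read 30, 32, 37 and 22 in the 129S1/SvImJ controls and 92, 102, 152 and 86 with the drug, with no overlap, and did not pass in C57BL/6 (0.02). Lcorl, a gene of body size variation, differed by 1.42 ± 0.28 (adjusted p = 0.0241). Sorl1, a sorting receptor, read 299, 217, 306 and 172 and then 72, 65, 79 and 68 in 129S1/SvImJ and differed by -1.83 ± 0.27 (adjusted p = 0.00486). Ptges, which makes prostaglandin E, fell by 1.42 in 129S1/SvImJ and differed by -1.89 ± 0.32 (adjusted p = 0.0205). Its control mean was 540 in 129S1/SvImJ against 243.2 in C57BL/6, and its drug mean 197.8 against 344.8. Disp2 differed by 1.84 ± 0.40 (adjusted p = 0.0411), and there it was C57BL/6 that changed, by -1.63, while 129S1/SvImJ stood at 0.21. Gpd1, which makes glycerol phosphate, differed by -0.96 ± 0.18 (adjusted p = 0.0205), rising by 1.32 in C57BL/6 against 0.36 in 129S1/SvImJ. The rise in 129S1/SvImJ was called only with array weights (adjusted p = 0.0269) or without control library 3 (adjusted p = 0.0448). Gpd1 controls read 7258 to 9909 in 129S1/SvImJ against 3853 to 5081 in C57BL/6.

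**Figure D4:**
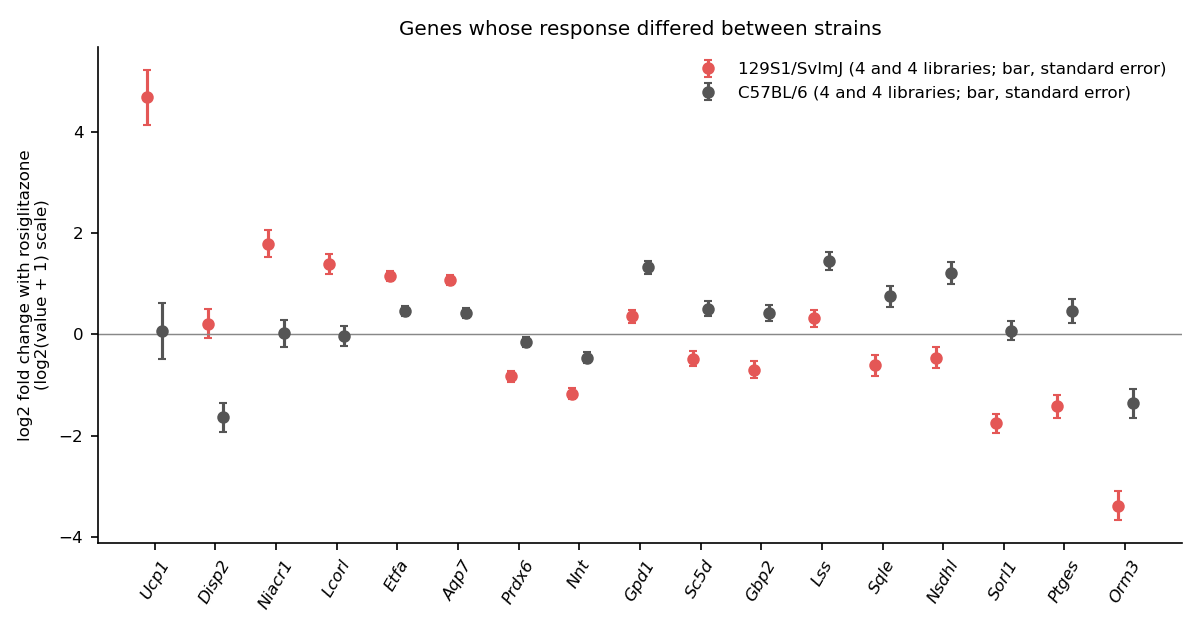
Log2 fold change with rosiglitazone (points) and its standard error (bars) in 129S1/SvImJ (red) and C57BL/6 (grey), for 17 genes whose response differed between the strains, ordered by the size of the difference. Ucp1 stands at 4.68 against 0.07, and Lss at 0.32 against 1.45.

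In all, 63 genes (0.449%) had a called difference between strains, 25 (0.178%) in the direction of a higher response in 129S1/SvImJ and 38 (0.271%) of a lower one. This count was 2 without drug libraries 1 and 2 of 129S1/SvImJ and lay between 17 and 136 when single libraries were left out. Without those 2 libraries the size of the difference hardly moved for Ucp1 (4.75, adjusted p = 0.0661) and Sorl1 (-1.78, adjusted p = 0.0654).

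Among transcription factors, 3 were higher and 3 lower of 33 (median 0.05), against 5.82% and 4.85% of all genes. Just 1 was higher when control library 2 or drug library 4 was left out. Ppara, the PPAR of oxidative tissues, read 111, 110, 167 and 117 in the controls and 317, 416, 322 and 325 with the drug (1.46 ± 0.19, adjusted p = 7.12e-05). Pparg, the receptor that rosiglitazone binds, read 1043, 1166, 1233 and 1220 and then 755, 858, 969 and 756 (-0.49 ± 0.10, adjusted p = 0.00319). The 4 drug libraries lay below all controls for Pparg and above them for Ppara. In the authors' deposited table Pparg was at -0.39 (p = 0.00242). Nr3c1, the glucocorticoid receptor, fell by 0.39 and Rxra, a partner of PPARG, by 0.29 (adjusted p = 0.0415). Rxra lost its call without any of 5 single libraries, and in the authors' deposited table it was at -0.15 (p = 0.229).

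Of 17 tested adipokines, 1 was higher and 2 lower (median -0.403), against 5.82% and 4.85% of all genes. Retn, which encodes resistin, read 4253, 3953, 4854 and 3816 in the controls and 1570, 2000, 1030 and 1637 with the drug (-1.47 ± 0.24, adjusted p = 0.00101). Rbp4, the retinol carrier, fell by 1.20 (adjusted p = 0.0143), and by 1.10 without drug libraries 1 and 2 (adjusted p = 0.111). Angptl4, an inhibitor of lipoprotein lipase, rose by 0.86 ± 0.14. Lep, which encodes leptin, ran from 8024 to 11028 in the controls and from 6133 to 9517 with the drug (-0.16 ± 0.29, adjusted p = 0.805).

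The insulin signalling and glucose uptake list had 3 higher and 1 lower of 26 (median 0.02), against 5.82% and 4.85% of all genes. Slc2a4, the insulin-dependent glucose transporter GLUT4, read 1050, 1104, 1292 and 1185 and then 1114, 1201, 902 and 1204 (-0.07 ± 0.16, adjusted p = 0.848). Trib3, an inhibitor of AKT, rose by 0.95 ± 0.20. Pde3b, which breaks down cyclic AMP, rose by 0.40 ± 0.12 (adjusted p = 0.04), a call lost without any of 6 single libraries. Cav1, the main protein of caveolae, fell by 0.69, from 22383, 23240, 19711 and 19711 to 12665, 12665, 13106 and 14393. In the authors' deposited table it was at -0.32 (p = 0.00441).

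Acute phase and complement genes fell together: 10 of 20 were lower, 0 higher and all 20 below 0, with a median of -0.759. Saa3, a serum amyloid A made by fat, read 35, 150, 31 and 26 in the controls and 5, 6, 2 and 10 with the drug (-2.93 ± 0.65, adjusted p = 0.00968). Control library 2 stood apart from the other 3, and the groups did not overlap. Serpina3n, a protease inhibitor, read 4662, 4632, 5465 and 4403, then 2423, 1925, 2132 and 1894 (-1.20 ± 0.11, adjusted p = 6.63e-07). Hp, which encodes haptoglobin, fell by 1.25 and the complement protease C1s by 0.95. Orm3, an orosomucoid outside that list, had the largest fall of the genes named by size, from 142, 171, 213 and 190 to 15, 22, 9 and 22 (-3.38 ± 0.29, adjusted p = 6.63e-07). Orm, Serpina1 and Serpina3 genes have near-identical copies, so the split of reads among them is uncertain. Without drug libraries 1 and 2, 6 of the 20 were called lower, and Saa3 was not (adjusted p = 0.0707).

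Antioxidant and glutathione genes split, with 4 higher and 5 lower of 28 (median 0.12). Cat, the peroxisomal catalase, rose by 0.75 ± 0.11. Nnt, the mitochondrial transhydrogenase that makes NADPH, read 221, 237, 229 and 275 in the controls and 113, 105, 102 and 105 with the drug (-1.17 ± 0.11, adjusted p = 6.63e-07). Gsta3 (-1.49 ± 0.21) and Gstm1 (-1.32 ± 0.14), glutathione transferases of families with close copies, fell, and so did the peroxiredoxin Prdx6 (-0.83 ± 0.11). Nnt and Prdx6 fell more in 129S1/SvImJ than in C57BL/6, by differences of -0.71 ± 0.16 (adjusted p = 0.0421) and -0.68 ± 0.15 (adjusted p = 0.0444). Both started from higher values in 129S1/SvImJ, and the strains lay closer with the drug. Nnt means were 240.5 in 129S1/SvImJ and 118.8 in C57BL/6 controls, then 106.2 and 85.75 with the drug. For Prdx6 they were 2238 and 1146, then 1261 and 1032. Only 1 member, and no longer 4, was higher without drug libraries 1 and 2, and 2 were without control library 1 or 4 or drug library 1 or 4.

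Among marker lists of other cell types, the summed values of the mesothelial and the epithelial list were lower with the drug without overlap. Mesothelium is the sheet that covers the fat pad. All 14 mesothelial genes were below 0 (median -1.06), though only Efemp1 (-1.45 ± 0.29, adjusted p = 0.00476), a matrix protein not limited to these cells, and Krt8 (-1.12 ± 0.34, adjusted p = 0.0443) were called, and Krt8 lost its call without any of 6 single libraries. The summed value of the 14 was 3371, 5075, 3686 and 5133 in the controls and 1873, 1835, 1520 and 3028 with the drug, without overlap. Upk3b, a defining mesothelial gene, read 506, 710, 523 and 796 and then 244, 232, 205 and 508 (-1.16 ± 0.56, adjusted p = 0.23), and was called with the 8 libraries of 129S1/SvImJ fitted alone (adjusted p = 0.0399), where 9 of the 14 were lower. In bulk tissue, fewer cells of a type and less RNA per cell cannot be told apart. The part of mesothelial RNA in the lower genes of other lists was not tested.

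Of 28 macrophage genes, 3 were lower and 0 higher (median -0.385), against 4.85% and 5.82% of all genes. The list was mixed, with 12 of the 28 above 0, the highest at 0.853. It had 5 lower without drug libraries 1 and 2 and 6 without drug library 1. Lyz1, which shares reads with its copy Lyz2, fell by 1.29 ± 0.19, and Cd163, a scavenger receptor of resident macrophages, from 463, 473, 474 and 411 to 363, 328, 217 and 194. The summed value of the list ran from 6633 to 10615 in the controls and from 5100 to 8009 with the drug, so it overlapped. No gene of 11 tested lymphocyte genes, 9 muscle genes, 6 erythroid genes or 19 immediate early genes was called, against 10.7% of all genes. Lists this short can lack calls at that share. Only 11 of 20 lymphocyte and 9 of 15 muscle genes passed the low-value filter. The endothelial list had 1 of 20 higher, Nos3 (0.55 ± 0.16, adjusted p = 0.0384), and the skin and glandular epithelium list 1 of 4 lower, Trf, the iron carrier that fat itself makes (-1.45 ± 0.19). The summed value of the epithelial list ran from 7214 to 9622 in the controls and from 2639 to 3667 with the drug. Nearly all of it was Trf, at 9517, 7128, 8426 and 9517 and then 2552, 3047, 3601 and 3448. Nos3 lost its call without any of 6 single libraries.

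Extracellular matrix genes had 4 lower and 1 higher of 40 (median -0.095). For this and the other lists of this paragraph, the shares of all genes were 4.85% lower and 5.82% higher. The basement membrane collagens Col18a1 (-0.79 ± 0.16), Col4a1 (-0.59 ± 0.13) and Col4a2 (-0.46) fell, as did decorin, Dcn (-0.59 ± 0.13). The authors' deposited table gave smaller falls, -0.67 for Col18a1, -0.38 for Col4a1 and -0.44 for Dcn. Col18a1 read 2398, 2702, 1770 and 2088 in the controls and 1460, 1044, 1139 and 1551 with the drug. Postn, a matrix protein of remodelling tissue, was higher at 0.86 ± 0.20, although its groups overlapped at 579 and 578. Chemokines had 1 of 19 higher, Cxcl9, and interferon response genes 1 of 26 lower, Gbp2. Of 18 progenitor genes, Fap fell by 0.82, with an adjusted p of 0.0501 without control library 3. The clock list had 2 of 15 lower, Bhlhe40 and Tef, and the cell cycle list 1 of 22 higher, Cdk1 (1.27 ± 0.34, adjusted p = 0.0199). Single libraries ended several of these calls: 6 of the 8 when left out for Cxcl9, 5 for Tef and 3 for Cdk1. The calls of those 3 were lost without drug libraries 1 and 2, and so were Postn (adjusted p = 0.0798), Gbp2 (adjusted p = 0.0598) and Bhlhe40 (adjusted p = 0.0915).

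The other genes with the largest changes fall outside these themes or in several. Sptlc3, a subunit of the first enzyme of sphingolipid synthesis, read 3, 2, 1 and 2 in the controls and 30, 31, 33 and 38 with the drug (3.54 ± 0.34). Its controls lay near the floor, and its fold change ran from 1.84 to 3.69 over the alternatives. Chchd10, a protein of the mitochondrial intermembrane space, read 42, 30, 58 and 30 and then 372, 446, 346 and 430 (3.33 ± 0.24, adjusted p = 5.45e-07). Tmem56 (3.18 ± 0.62) and the nicotinic receptor gene Chrna2 (2.86 ± 0.31) rose too. Tmem56, with controls of 3, 3, 9 and 5, ran from 2.02 to 3.47 over the alternatives, with adjusted p up to 0.0498. Among the falls, Enpep, an aminopeptidase that cleaves angiotensin, read 1386, 1179, 1132 and 1513 and then 214, 272, 140 and 365 (-2.46 ± 0.31, adjusted p = 0.000207). Folh1, a folate hydrolase, fell by 2.28, the complement component C6 by 2.03 and Serpina1d by 2.28, the last a call lost without any of 6 single libraries. The groups do not overlap in any of these genes, because they were picked for that.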

How the data were processed

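RNA from epididymal fat of 16 libraries (4 per strain and diet) was extracted with Trizol and RNeasy columns and sequenced on an Illumina Genome Analyzer from TruSeq libraries, per the labels' protocols. HOMER and the build mm9 are named in the submitters' processing notes, and no source used here names the aligner. The deposited table holds the authors' normalized values per transcript as whole-number scores, and no source used here names the normalization. It also holds the authors' log2 fold changes with p-values, quoted here only where named as the authors' deposited table. Because the scores are normalized and depth is unknown, no count model was used.

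Of 28644 transcripts, the 1 with the highest total was kept for each of 22869 gene symbols, and 14044 genes with a mean of at least 5 over 16 libraries were tested. The log2(value + 1) scores were fitted with limma 3.58.1 in R 4.3.3 (trend and robust variance, 4 groups, all 16 libraries sharing 1 estimate of the spread), and p-values were adjusted by Benjamini-Hochberg at 0.05. Each strain was compared with its own controls, and the difference of the 2 responses gave the test between strains. The fit of the 129S1/SvImJ response was also run on simulated data of 14044 genes with 200 changed. There it recovered 68% of genes changed by 1 log2 unit and 93% of those changed by 2, with 3% false calls. Whether these shares hold for the deposited values was not tested.

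Genes are named by a rule: the 8 largest called changes each way without overlap and with a mean of at least 20, up to 3 called members each way per list by p-value, 8 fixed fat cell genes, and the 4 largest called differences between strains each way. Other genes named were chosen after their values were seen. The libraries, the gene lists and the rule were chosen with earlier results of these data known, and the lists are no independent support. The low-value filter is stricter than in that earlier work. Same-numbered control and drug libraries of 129S1/SvImJ did not deviate together (correlations from -0.073 to 0.058). Alternatives covered the pseudocount, filter, centring, variance model, array weights, a replicate block, each library left out, 1 strain alone and the choice of transcript. Leaving out drug libraries 1 and 2 together was chosen after seeing the data. Promoters were matched by symbol to RefSeq sequences of another build, GRCm38.p6, for 9864 of the 14044 genes. Values of some genes that the rule names are not reported here.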

Additional observations from a re-analysis of the deposited data

Results flagged for a closer look

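The response differed between strains, by the test of the difference itself (limma, adjusted p under 0.05), for 23 genes named in the text. In sterol synthesis and uptake the response of 129S1/SvImJ minus that of C57BL/6 (log2) was -1.67 for Nsdhl, -1.356 for Sqle, -1.129 for Lss and -0.989 for Sc5d. In fat handling and oxidation it was 4.616 for Ucp1, 0.649 for Aqp7, 0.688 for Etfa, -0.962 for Gpd1, -1.669 for Mid1ip1, 1.173 for Ephx2, 1.766 for Niacr1 and 1.071 for Apoc1. For the redox genes Nnt and Prdx6 it was -0.71 and -0.677. The 3 tubulins gave -1.702 (Tuba1a), -1.223 (Tuba1b) and -1.15 (Tubb4b). The others were Orm3 at -2.028, Gbp2 at -1.118, Disp2 at 1.845, Lcorl at 1.418, Ptges at -1.885 and Sorl1 at -1.832. Some of these differences went with unequal controls. Control means in 129S1/SvImJ and C57BL/6 were 791.8 and 1337 for Aqp7, 829.5 and 1624 for Ephx2 and 286.5 and 119 for Mid1ip1. With the drug they lay closer, at 1675 and 1792, 4398 and 3943, and 139.2 and 188.8. For Ucp1 (21.5 and 3.75, then 411.8 and 4) and Sorl1 (248.5 and 392.2, then 71 and 408.2) the drug means lay further apart. Without drug libraries 1 and 2 of 129S1/SvImJ, only Tuba1b (-1.11, adjusted p = 0.00412) and Tubb4b (-1.13, adjusted p = 0.0179) of the 23 stayed past the threshold.

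A library stood apart from the other 3 of its group in 16 of 236 groups examined (6.78%), by Dixon's 95% critical value for 4 samples, which chance passes in about 1 in 20 groups. Among the controls these were Elovl3 in library 1 (5), Saa3 in library 2 (150), Dgat2 in library 1 (23240), Etfa in library 1 (350), Ppara in library 3 (167) and Apoc1 in library 4 (107). With rosiglitazone they were Slc27a1 (3533), Sc5d (368), Trib3 (64), Prdx6 (1074) and Cd36 (22943) in library 3, Ppara (416) and Tuba1b (383) in library 2, and Fabp4 (58431), Etfa (768) and Upk3b (508) in library 4. For Cd36, Fabp4 and Elovl3 the other 3 libraries held 1 tied value (22517, 69086 and the floor of 1). With such ties the rule passes at any distance, and these flags do not show a library apart.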

How the results depend on the processing

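The count of genes called in 129S1/SvImJ (1499) was 836 without drug libraries 1 and 2 and lay between 964 and 1294 with any single 129S1/SvImJ library left out. Every other alternative gave 1223 to 2075, within 1.5 times, including 1368 with the replicate block, under which 1255 of the 1499 genes were called. In C57BL/6 the count (716) was 452 without trend and robust variance, 390 with the 8 libraries of that strain alone and 325 to 903 with single libraries left out. The difference between strains (63 genes) gave 16 without trend and robust variance, 168 with array weights, 2 without drug libraries 1 and 2 and 17 to 136 with single libraries left out, and is the least settled of the 3 counts. Under the replicate block these 2 counts were 651 and 83. Of the 91 called genes named by the rule, 29 lost the call under at least 1 alternative and none turned direction. Adipoq, never called, turned to -0.178 without drug libraries 1 and 2. With single libraries left out, Adipoq ran from -0.034 (without drug library 1 or 2) to 0.122, Cd36 from -0.006 (without control library 1) to 0.048 and Slc2a4 from -0.118 to 0.022 (without drug library 3), none of them called. Read depth is unknown, so the precision of low values cannot be stated, and a scale on which Scd1 holds 1 value in every library cannot show a change in it.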

Other observations

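Several genes outside the lists, picked after their values were seen, moved in 129S1/SvImJ and are given as values (limma, adjusted p over 14044 genes). Ephx2, the soluble epoxide hydrolase that breaks down fatty acid epoxides, read 819, 879, 873 and 747 in the controls and 4494, 4811, 4187 and 4102 with the drug (2.40 ± 0.16, adjusted p = 4.4e-08). Its groups were far apart, with no overlap. Arxes1, an adipocyte gene known as a PPARG target, went from 40, 36, 33 and 33 to 123, 112, 121 and 148 (1.80 ± 0.17), with a like value in C57BL/6 (1.88 ± 0.17). Retsat, a retinol saturase of fat cells, rose by 1.49 ± 0.17, and Aldh1a3, which makes retinoic acid, by 1.50 ± 0.39 although drug library 4 (27) lay within the controls (20 to 29). The Aldh1a3 call, like those of Peg3, Zim1 and Apoc2, was lost when any of several single libraries was left out (adjusted p up to 0.21, 0.114, 0.0896 and 0.251 over the alternatives). The calls of Gpr81 (adjusted p = 0.0812), Apeg3 (adjusted p = 0.0854) and Apoc4 (adjusted p = 0.0681) were lost without drug libraries 1 and 2, and that of Apoc4 also without control library 4 (adjusted p = 0.0534). Gpr81, the lactate receptor next to Niacr1 in the genome, read 193, 200, 168 and 177 and then 442, 472, 525 and 505 (1.39 ± 0.33, adjusted p = 0.0162).

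Genes that lie near each other were also called together in the Peg3 and Apoc regions. Peg3, an imprinted zinc finger gene, read 143, 249, 193 and 219 in the controls and 845, 546, 1489 and 330 with the drug (1.80 ± 0.46, adjusted p = 0.025). Its antisense partner Apeg3 (1.77 ± 0.42, adjusted p = 0.0151) and Zim1 of the same imprinted domain (1.67 ± 0.46, adjusted p = 0.0234) were higher too, with drug library 3 the highest for all 3. Reads of Peg3 and Apeg3 cannot be told apart without strand. In C57BL/6 Peg3 stood at 474 to 2106 in the controls and 672 to 893 with the drug, and the difference between strains did not pass (adjusted p = 0.165). The apolipoprotein genes Apoc1 (0.90 ± 0.16), Apoc2 (1.44 ± 0.42) and Apoc4 (1.85 ± 0.48) were higher, the last 2 at values of 1 to 32, and their transcripts lie so close that reads may be shared.

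The tubulin genes Tuba1a, Tuba1b and Tubb4b fell in 129S1/SvImJ (-1.90, -0.81 and -0.76). Tuba1a read 2361, 2180, 2580 and 2075 in the controls and 743, 455, 676 and 618 with the drug. In C57BL/6, Tuba1b and Tubb4b were higher with the drug (0.42 and 0.39) and Tuba1a did not pass (-0.20). Control means were higher in 129S1/SvImJ than in C57BL/6 for Tuba1a (2299 against 1268), Tuba1b (880.8 against 498.5) and Tubb4b (763.5 against 354.2). These genes have close copies, and what their change goes with was not tested.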
